A study of Homo sapiens with 3 samples.

Results

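The control SKOV-3 cells of a G9a knockdown study were described here by the genes that read bright and the genes that read at background on their single expression array. SKOV-3 is an established human line, grown from the ascites of an ovarian adenocarcinoma, and the control cells carried an shRNA against luciferase (Luc shRNA), a gene they do not have. The series held 3 arrays, 1 each for cells with Luc shRNA, G9a shRNA1 and G9a shRNA2, and all of these cells had been stably transduced and kept under puromycin selection. The control is therefore a vector-carrying, drug-selected population and not the parental line. The rule took the array titled SKOV3_Luc shRNA, gave each gene the value of its brightest probe set among those with 1 gene symbol, and ranked the genes, which left 19775 genes from 41097 of the 54675 probe sets. With 1 array per condition there was no replicate error, so all values below are descriptions of this array and carry no test.

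Tumor cell lines are placed by what they express. Epithelial cells hold to their neighbours through cadherins, claudins and desmosomes over a keratin network, mesenchymal cells use vimentin and matrix proteins, and tumors of the ovary and tube often keep transcription factors of the Müllerian duct such as PAX8. Receptors on the surface decide which signals a cell can receive, and the pathways inside it (ERK, PI3K, p53, RB, WNT, Hippo) carry those signals to growth, arrest or death.

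Signals were Affymetrix MAS5 intensities, in arbitrary units on a linear scale. A gene was called bright when its signal was at or above 89.7, the 75th percentile of all values on the 3 arrays, and at background when it was under their median of 11.96. Genes between these boundaries are called intermediate. Of the 19775 genes, 7825 were bright (39.6%), 4501 were intermediate and 7449 were at background (37.7%), and the median gene read 35.8. Among protein-coding genes 46.5% were bright and 30.5% at background. The percentages of list members below stand beside these shares, and several lists lie near them. A rank orders signals and not transcript numbers, because each probe set binds with its own strength, and values under the median have no order among themselves.

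**Figure D1:**
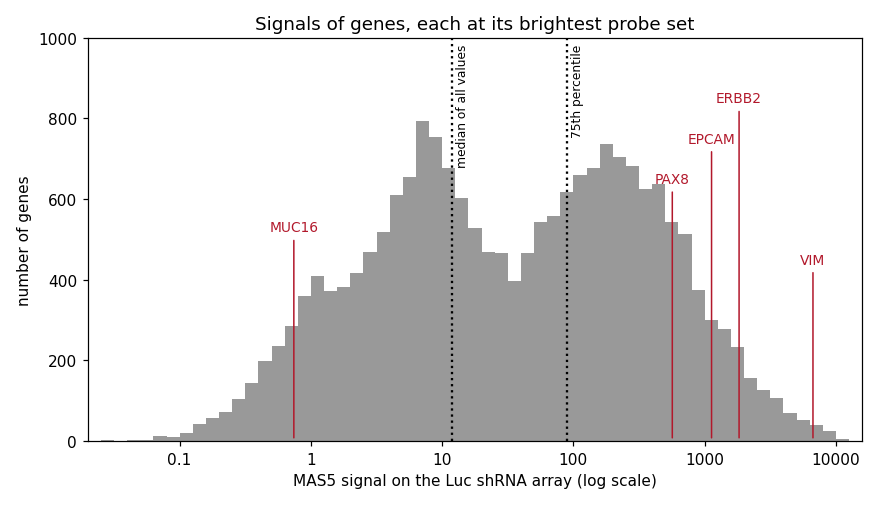
Number of genes (vertical axis) by MAS5 signal on the Luc shRNA array (horizontal axis, log scale), with dotted lines at the median and the 75th percentile of all values and red lines at the 5 marker genes. The histogram has a peak of 794 genes on the background side, a dip of 396 genes between the boundaries and a peak of 737 genes on the bright side; MUC16 lies in the lower hump and the other 4 markers in the upper.

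The gene signals formed a pair of humps, as the histogram of gene signals shows. In bins of 0.1 on the log10 scale, the lower hump was highest between 6.31 and 7.94 and the upper between 158 and 200 (199.5). The dip, between 31.6 and 39.8, fell in the intermediate class. Among the listed genes, the nearest above the median were ESRRB at 12.2, S1PR4 at 12.3 and ROS1 at 12.4, and the nearest under it were IL31RA at 11.9, PTGER2 at 11.9 and NTRK2 at 11.8. At the upper boundary LMTK2 at 89.8, TP53I3 at 91.0 and ABCG2 at 91.1 lay just inside the bright class, and FAS at 89.4, LTBR at 88.9 and DSC2 at 88.2 just outside it.

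The label was checked first. EHMT2, the gene of G9a, read 182 on the Luc shRNA array against 29.7 and 79.2 on the G9a shRNA1 and G9a shRNA2 arrays. These values come from the EHMT2 probe set that read brightest on the Luc shRNA array, a choice that can favour that array. Of the 5 genes taken as markers of this line, 4 were bright and MUC16 was at background. ERBB2, the receptor tyrosine kinase whose gene is known to be amplified in SKOV-3, read 1828, above 96.6% of the genes, and its other probe sets both read 41.2. EPCAM, an adhesion protein of epithelial surfaces, read 1128. VIM, the intermediate filament of mesenchymal cells, read 6681 and ranked 58, with its other probe set at 10.8. PAX8, the Müllerian transcription factor, was the marker with the most probe sets, and all 8 of them read above the median, from 54.4 to 567. MUC16, the mucin that carries the serum antigen used to follow ovarian cancer, read 0.741 at its single probe set. The markers thus placed an epithelial surface protein and a mesenchymal filament in the same population, with the Müllerian factor and without a readable MUC16 signal. All 5 kept their class on both G9a shRNA arrays, and with the mean log2 signal over probe sets in place of the brightest, ERBB2 read 146 and VIM 268.

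The sequences just upstream of these genes are shown because such sequences of bright and background genes differed in CG content, as given further on. Each line is the 250 bases before the start of the gene in RefSeq (GRCh38.p14), in the direction of transcription, with every CG dinucleotide in capitals. ERBB2 lies on the plus strand and its window, chr17:39687844-39688093, held 23 CG. The window of VIM, chr10:17227991-17228240 on the plus strand, held 8. That of PAX8, chr2:113278922-113279171 on the minus strand, held 11, and that of MUC16, chr19:9065752-9066001 on the minus strand, held 6.
ERBB2: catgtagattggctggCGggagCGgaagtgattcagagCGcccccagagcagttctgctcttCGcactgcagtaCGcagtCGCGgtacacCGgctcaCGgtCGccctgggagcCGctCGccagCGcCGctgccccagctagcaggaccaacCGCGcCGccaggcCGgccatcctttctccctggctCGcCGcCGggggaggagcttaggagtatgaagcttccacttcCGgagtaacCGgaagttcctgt
VIM: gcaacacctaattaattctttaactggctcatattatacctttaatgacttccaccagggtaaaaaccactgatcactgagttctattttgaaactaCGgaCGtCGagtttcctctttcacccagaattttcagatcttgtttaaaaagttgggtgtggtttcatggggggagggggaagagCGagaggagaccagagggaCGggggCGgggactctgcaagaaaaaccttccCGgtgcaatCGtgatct
PAX8: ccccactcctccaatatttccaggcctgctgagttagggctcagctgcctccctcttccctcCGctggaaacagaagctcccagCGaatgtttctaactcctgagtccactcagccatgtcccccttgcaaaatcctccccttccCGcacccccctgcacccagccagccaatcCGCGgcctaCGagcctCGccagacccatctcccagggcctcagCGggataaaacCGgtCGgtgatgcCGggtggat
MUC16: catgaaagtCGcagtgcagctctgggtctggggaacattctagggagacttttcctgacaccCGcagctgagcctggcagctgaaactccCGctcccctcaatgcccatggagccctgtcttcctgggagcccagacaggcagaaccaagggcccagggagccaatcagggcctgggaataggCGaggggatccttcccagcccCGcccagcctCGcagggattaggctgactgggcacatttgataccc

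The list of Müllerian and ovarian cancer markers had 21 measured members, of which 11 were bright (52.4%), 3 intermediate and 7 at background (33.3%). Their median was 93.7 against 35.8 for all genes and 70.6 for protein-coding genes. Both shares were near the 46.5% and 30.5% of protein-coding genes. Besides PAX8, the bright transcription factors were MECOM at 1271, a regulator often amplified in ovarian tumors, and SOX17 at 280, which acts early in Müllerian and endodermal development. ESR1, the estrogen receptor alpha, read 279 at 1 of its 9 probe sets, while the other 8 read 2.85 to 14.7. Among secreted and surface products, SPP1 (osteopontin) read 1685, with its other probe set at 6.11. FOLR1, the folate receptor targeted in ovarian cancer, read 839, and its other probe set 170 (170.5). SLPI, a secreted protease inhibitor of mucosal surfaces, read 513. PRAME, an antigen of germ cells and tumors, read 280. Several surface and secreted products of ovarian tumors were thus bright together with the factors, in a list whose shares were near those of protein-coding genes.

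The members at background were PAX2 (11.3), PGR (8.55), EMX2 (3.87), KLK7 (3.71), KLK6 (2.12), MSLN (1.79) and MUC16. PGR, the progesterone receptor and a classic target of the estrogen receptor, thus read at background in cells whose ESR1 was called bright on a single probe set. MSLN, mesothelin, is the cell-surface partner of the MUC16 protein, and both genes were at background. WFDC2, a secreted serum marker of ovarian cancer, was intermediate at 17.6, and WT1, a factor of serous tumors and mesothelium, was intermediate at 43.7.

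Markers of other ovarian histologies and of neighbouring cells were mostly at background. Of 10 markers of clear cell and mucinous tumors, ANXA4, an annexin linked to the clear cell type, was bright at 3829, and its other probe set read 2868. MUC5AC, a gel-forming mucin, was intermediate at 17.2, and the remaining 8 (80%), from NAPSA at 11.02 to KRT20 at 0.348, were at background. All 15 markers of ovarian stroma, granulosa cells and germ cells were at background, the highest being INHA, an inhibin subunit, at 8.997. Among 9 mesothelial markers none was bright, 5 were intermediate and 4 at background (44.4%), UPK3B, a uroplakin of mesothelium, reading highest at 66.7.

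**Figure D2:**
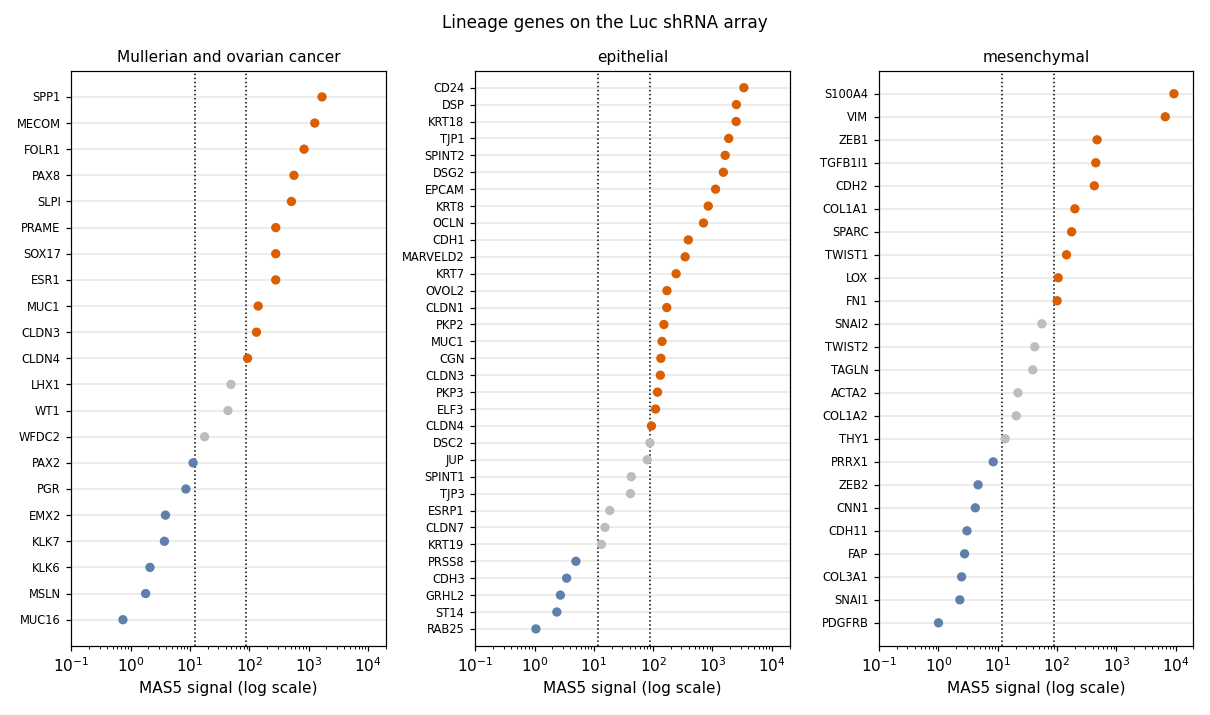
MAS5 signal on the Luc shRNA array (horizontal axis, log scale) of each measured gene in the Müllerian, epithelial and mesenchymal lists, 1 point per gene at its brightest probe set, orange for bright, grey for intermediate and blue for background, with dotted lines at the median and the 75th percentile of all values. Each list has genes in all 3 classes, the Müllerian from 0.741 (MUC16) to 1685 (SPP1), the epithelial from 1.05 (RAB25) to 3387 (CD24) and the mesenchymal from 1.002 (PDGFRB) to 9363 (S100A4).

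Of 33 measured genes of epithelial junctions and surfaces, 21 were bright (63.6%), 7 intermediate and 5 at background (15.2%), and their median was 135. CD24, a glycoprotein of epithelial progenitors, read 3387. Of the desmosome genes, DSP, the plaque protein desmoplakin, read 2532 and the cadherin DSG2 1527, while the cadherin DSC2 (88.2) and the plaque protein JUP (79.5) were intermediate. KRT18 read 2510.1 and its partner in simple epithelia, KRT8, read 849. Tight junctions were represented by the scaffold TJP1 at 1880.2 and the membrane protein OCLN at 706. SPINT2, an inhibitor of surface serine proteases, read 1637. CDH1, the E-cadherin of adherens junctions, was bright at 391, with its other probe set at 1.27.

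The 5 epithelial genes at background included regulators and proteases. GRHL2, a transcription factor that keeps epithelial genes active, read 2.73. ST14 and PRSS8, surface serine proteases that act in a shared cascade, read 2.38 and 4.99. RAB25, an epithelial trafficking GTPase, read 1.05, and CDH3, P-cadherin, 3.48. ESRP1, the epithelial splicing factor, was intermediate at 18.5 and the keratin KRT19 was intermediate at 13.4.

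Of 24 mesenchymal genes, 10 were bright (41.7%), 6 intermediate and 8 at background (33.3%), with a median of 40.6. These shares were near the 39.6% and 37.7% of all genes and the 46.5% and 30.5% of protein-coding genes. S100A4, a calcium-binding protein of motile cells, read 9363 and ranked 7 of all genes. ZEB1, a repressor of E-cadherin, was bright at 473. CDH2, N-cadherin, was bright at 425. TWIST1, another factor of the transition from epithelium to mesenchyme, read 145 (144.5). ZEB1, TWIST1 and CDH2 were therefore bright on the same array as CDH1. The CDH1 call rested on the brighter of its probe sets (391), and the other read 1.27, at background.

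ZEB2, the relative of ZEB1, was at background at all 5 of its probe sets, of which the highest read 4.67. SNAI1, a repressor of the same kind, read 2.30, and SNAI2 was intermediate at 55.6. Genes that fibroblasts express strongly differed in class, with FAP (2.76), CDH11 (3.03), COL3A1 (2.46) and PDGFRB (1.002) at background, COL1A2 (20.5) and ACTA2 (22.0) intermediate and COL1A1 (200.06) bright. The other members at background were PRRX1 (8.40), a mesodermal homeobox factor, and CNN1 (4.19), a smooth muscle calponin. COL1A1, a collagen, was bright at 1 of its 5 probe sets and read 9.45 to 46.0 at the other 4. COL1A1, LOX (105), a collagen cross-linking enzyme, and FN1 (100.4), fibronectin, were bright on the Luc shRNA array and in a lower class on both G9a shRNA arrays, a difference that has no replicate check.

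Receptor tyrosine kinases are the surface enzymes that growth factors switch on. Of 55 measured, 17 were bright (30.9%), 14 intermediate and 24 at background (43.6%), with a median of 16.7. AXL, the receptor of GAS6, read 2579 at its brightest probe set and 193 at the other. ERBB2 was next by signal. MET, the receptor of hepatocyte growth factor, read 1139 at 1 probe set and from 6.44 to 32.4 at the other 3. EGFR read 645, 447 and 232 at 3 probe sets and 10.1 or less at the remaining 6. Probe sets of MET and EGFR therefore lay on both sides of the boundaries, and each gene was called by its brightest.

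**Figure D3:**
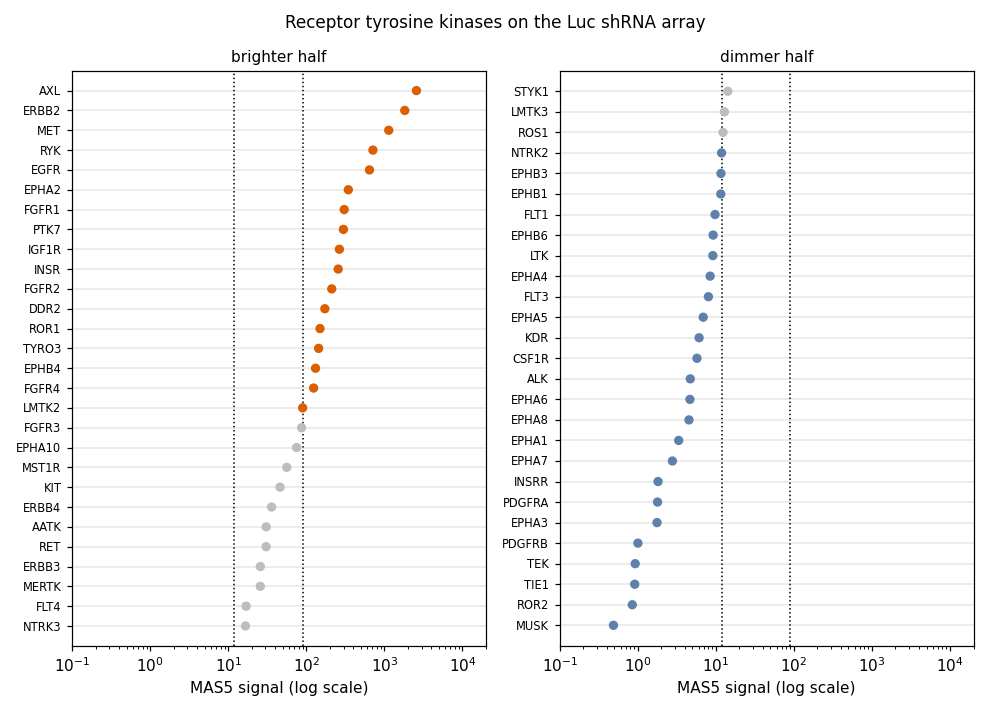
MAS5 signal on the Luc shRNA array (log scale) of the 55 measured receptor tyrosine kinase genes, each at its brightest probe set and ordered by signal over both panels, orange for bright, grey for intermediate and blue for background, with dotted lines at the median and the 75th percentile of all values. AXL (2579), ERBB2 (1828) and MET (1139) head the 17 bright genes, and MUSK (0.487) is the lowest of the 24 at background.

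Within the ERBB family, ERBB2 and EGFR were bright, while ERBB4 (35.9) and ERBB3 (25.8) were intermediate. Their ligands differed in class too. NRG1, the neuregulin that binds ERBB3 and ERBB4, was bright at 416, and of the EGFR ligands TGFA read 267 and HBEGF 135. EGF (3.30), BTC (2.20) and EREG (1.44), further ligands of the family, were at background. The cells thus read bright for the receptor EGFR and for some of the ligands that bind it.

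Other bright kinases were RYK at 714, a WNT-binding receptor, EPHA2 at 346, an ephrin receptor, FGFR1 at 306, PTK7 at 299, a planar polarity receptor, and IGF1R at 266. FGFR2 (212) and FGFR4 (124) were also bright. FGF2, a ligand of these receptors, was bright at 730 (730.4), while FGF1 (7.002), FGF7 (4.603) and FGF9 (2.27) were at background. Of the kinases of blood and lymph vessels, FLT1 (9.75), KDR (6.10), TEK (0.925) and TIE1 (0.913) were at background and FLT4 (16.9) was intermediate. PDGFRA (1.79) and PDGFRB (1.002), the receptors of platelet-derived growth factors, were at background, although the ligand gene PDGFC was bright at 1430 (1429.7). Of the 13 measured ephrin receptors in the list, EPHA2 and EPHB4 (131) were bright, EPHA10 (75.2) was intermediate and the remaining 10, from EPHB3 at 11.6 to EPHA3 at 1.76, were at background. The other kinases at background were NTRK2 (11.8), LTK (9.14), FLT3 (8.02), CSF1R (5.73), ALK (4.70), INSRR (1.81), ROR2 (0.849) and MUSK (0.487).

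Nuclear receptors turn hormones and lipids into transcription. Of 39 measured, 12 were bright (30.8%), 12 intermediate and 15 at background (38.5%). NR3C1, the glucocorticoid receptor, read 623. NR1D2, a repressor of the circadian clock, read 575. PPARG, the receptor of fatty acid ligands that drives fat cell genes, read 496. The common partner RXRA, with which PPARG binds DNA, was bright at 336. Besides PGR, the members at background included RARB (5.93), a retinoic acid receptor, and NR5A1 (1.88), the factor of steroid-making cells. ESR2, the beta form of the estrogen receptor, was intermediate at 12.8, just above the median.

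Among 55 receptors of cytokines, interferons and death ligands, 17 were bright (30.9%), 19 intermediate and 19 at background (34.5%). IL6ST, the signal-carrying chain shared by the interleukin 6 family, read 2286. OSMR (647) and LIFR (267), which pair with IL6ST to bind oncostatin M and LIF, were bright, and IL6R was bright at 177. TNFRSF21, a death receptor, read 2197. TNFRSF10B, a receptor of TRAIL, read 634. Both chains of the interferon gamma receptor were bright, IFNGR1 at 447 and IFNGR2 at 402. The bright members therefore included IL6ST with several of its partner chains and both chains that bind interferon gamma.

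Receptor chains of leukocytes fell in all 3 classes. IL2RG (1.77), the shared chain of the interleukin 2 family, IL2RA (8.86) and CSF2RB (5.49) were at background, IL2RB (15.8) and CSF2RA (19.0) were intermediate, and IL7R, the interleukin 7 receptor of lymphocytes, was bright at 206. TNFRSF1B, the TNF receptor of immune cells, read 0.582, whereas TNFRSF1A, the widespread form, was bright at 286. Of the Toll-like receptors measured, TLR1, TLR2, TLR3, TLR4, TLR5 and TLR6 all read at background, from 0.799 to 8.89.

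Receptors of TGF-beta, WNT, Notch and Hedgehog signals gave 16 bright (48.5%), 8 intermediate and 9 at background (27.3%) among 33 measured, with a median of 86.1. Both kinase chains of the TGF-beta receptor were bright, TGFBR2 at 511 and TGFBR1 at 450 (449.8). Of the frizzled receptors for WNT, FZD6 read 838 and FZD2 685. NOTCH2 was bright at 478 and NOTCH1 at 142, while NOTCH4 (9.07) and NOTCH3 (4.248) were at background. LGR4, a receptor of R-spondins, was bright at 391, and its relatives LGR5 (7.77) and LGR6 (6.96) were at background. ENG, a TGF-beta co-receptor of endothelium, read 2.38, and AMHR2, the receptor of the Müllerian-inhibiting hormone, read 0.638.

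G protein-coupled receptors were the receptor list with the lowest share of bright members, 7 of 48 (14.6%), with 17 intermediate and 24 at background (50%). ADGRG1, an adhesion receptor, read 1514. F2R, the thrombin receptor, read 1188. LPAR3, a receptor of the lysophosphatidic acid found in ovarian ascites, read 154. CXCR4, the receptor of CXCL12, was at background at all 3 probe sets, the highest at 3.24, and CXCL12 itself read 9.29. ACKR3, the other receptor of CXCL12, was bright at 96.6 and in a lower class on both G9a shRNA arrays. The gonadotropin receptors LHCGR (3.30) and FSHR (2.74) were at background, and S1PR1, a sphingolipid receptor, read 0.187.

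Of 46 genes often amplified or activated in carcinoma, 37 were bright (80.4%), 4 intermediate and 5 at background (10.9%), with a median of 347. CTNNB1, beta-catenin, read 2075. YES1, a kinase of the SRC family, read 1998. CDK4, the kinase that phosphorylates RB, read 1834, and its partner CCND1, cyclin D1, read 723. YAP1, the Hippo effector, read 1618. AURKA and TPX2, a mitotic kinase and its activator, read 1279 and 1354. MYC was bright at 428, while its relative MYCN (7.94) was at background and MYCL (12.7) lay just above the median. The other members at background were CCND2 (8.38), NOTCH3, RAB25 and LIN28B (0.701), an RNA-binding repressor of let-7.

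Tumor suppressor genes gave 24 bright (64.9%), 6 intermediate and 7 at background (18.9%) among 37 measured, and a median of 183. SMARCA4, the motor of the SWI/SNF remodeler, read 904. BRCA1 read 837 and RB1 642. The presence of signal from a gene says nothing of whether its product works.

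CDKN2A, which encodes the CDK inhibitor p16, was at background at all 3 probe sets, at 6.18, 4.95 and 1.64, and CDKN2B, its neighbour and relative, read 3.31. CDKN1B, the inhibitor p27, was bright at 515. NF1, a brake on RAS, read 2.91 at the only probe set with its symbol alone. When probe sets with several symbols, here shared with the pseudogene NF1P9, were let in, NF1 read 436 and was bright. The other suppressors at background were OPCML (7.14), FHIT (2.86), DIRAS3 (2.75) and PEG3 (0.448), of which the last pair are imprinted genes and OPCML, an adhesion protein, is described as a suppressor in ovarian cancer.

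**Figure D4:**
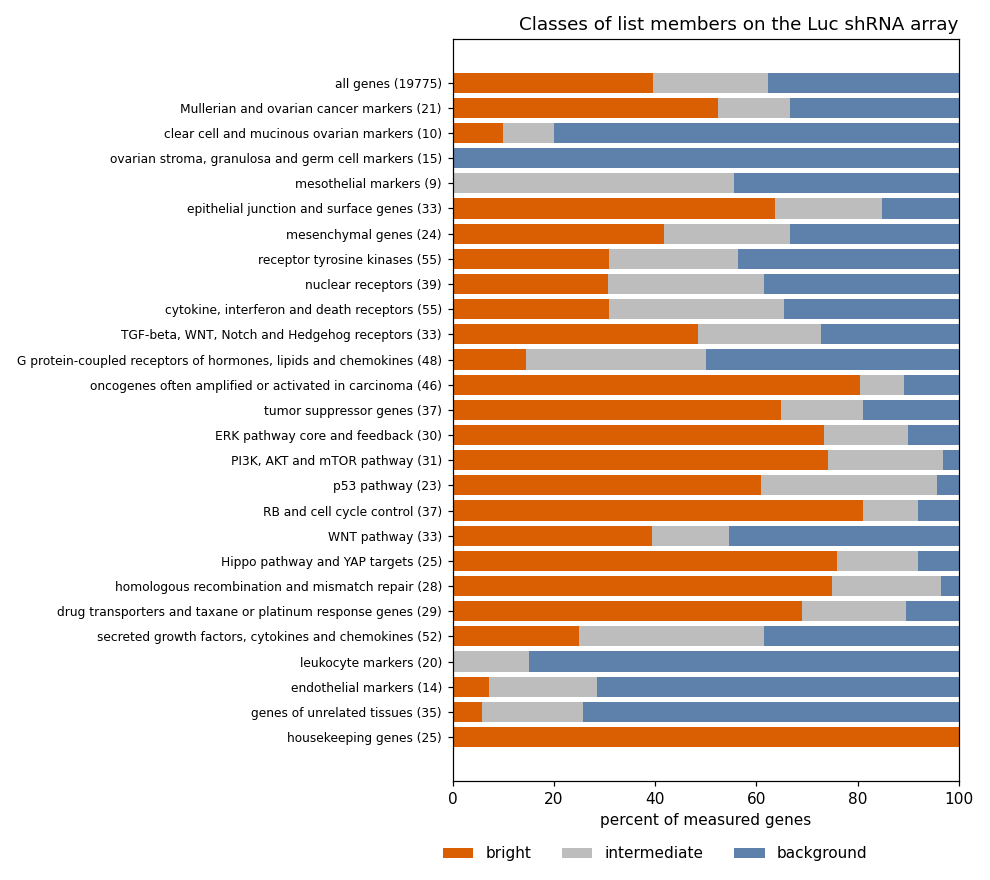
Share of measured members (horizontal axis, percent) that were bright, intermediate and at background on the Luc shRNA array, 1 bar per gene list, with the same shares of all 19775 genes for comparison. Housekeeping genes were all bright (25 of 25), and the stroma, granulosa and germ cell list was all at background (15 of 15).

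The bars of class by list show the pathways inside the cell beside all genes. In the ERK pathway 22 of 30 were bright (73.3%), 5 intermediate and 3 at background (10%). PTPN11, the phosphatase SHP2, read 2139, and the kinases MAP2K2 and MAP2K1 read 865 and 733. HRAS was bright at 699 and the adaptor GRB2 at 674. Of the feedback genes, PHLDA1 read 2269, DUSP5 157 and DUSP4 132, while DUSP6 (60.4), SPRY4 (57.4) and SPRY2 (28.9) were intermediate. SPRY1 (10.6), a Sprouty inhibitor of the pathway, was at background with EPHA4 (8.44) and NF1. When probe sets with several symbols were let in, NF1 was bright, and the list had 23 bright and 2 at background.

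In the PI3K, AKT and mTOR pathway 23 of 31 were bright (74.2%), 7 intermediate and 1 at background (3.23%). RPS6, the ribosomal protein phosphorylated downstream of mTOR, read 6734. RHEB, the GTPase that switches mTOR on, read 3755. Of the catalytic subunits, PIK3CB was bright at 753, PIK3CD was intermediate at 44.2 and PIK3CG, the form of leukocytes, was at background at 2.17. INPP4B, a phosphatase that opposes the pathway, was bright at 477.

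p53 is a transcription factor that answers DNA damage, and its list here held regulators and targets. Of 23 measured, 14 were bright (60.9%), 8 intermediate and 1 at background (4.35%), the last being TP73 (1.63), a relative of p53. PMAIP1, the death effector NOXA, read 2264. GADD45A, a stress protein, read 1310 (1309.5). MDM2, the ligase that degrades p53, read 536. CDKN1A, the inhibitor p21 and the best known target, was intermediate at 52.5.

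Cell cycle genes were bright in 30 of 37 cases (81.1%), with 4 intermediate and 3 at background (8.11%). TOP2A, a topoisomerase of dividing cells, read 3806. CDK1, the mitotic kinase, read 3210.1, and its cyclins CCNB1 and CCNB2 read 2606 and 1847. PCNA, the clamp of DNA polymerase, read 2848. The 3 members at background were CCND2, CDKN2A and CDKN2B, all given above.

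The WNT list had 13 of 33 members bright (39.4%), 5 intermediate and 15 at background (45.5%). All genes gave 39.6% and 37.7%, and protein-coding genes 46.5% and 30.5%. DKK3, a secreted protein of the family of WNT inhibitors, read 2158, ahead of CTNNB1. DKK1, a secreted WNT inhibitor, read 1299. TCF7L2, the partner of beta-catenin on DNA, read 879. AXIN2, a target and feedback gene of the pathway, was intermediate at 13.2, and the targets NKD1 (9.74) and RNF43 (3.72) and the partner LEF1 (8.05) were at background. Of the WNT ligands, WNT2B (136) and WNT5A (105) were bright on the Luc shRNA array and in a lower class on both G9a shRNA arrays. For WNT2B and WNT5A that difference has no replicate check. Ligands at background ran from WNT7B at 11.1 to WNT1 at 0.528.

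Hippo signalling restrains YAP1 and WWTR1, which act through TEAD factors. Of 25 measured genes of the pathway and its targets, 19 were bright (76%), 4 intermediate and 2 at background (8%), with a median of 432. TEAD1 read 1998 and WWTR1 1200 (1199.97). The kinases STK3 (798), STK4 (504), LATS2 (432) and LATS1 (235) were all bright. Of the targets, CCN1 read 1345 and AXL 2579, while CCN2 (58.9) and ANKRD1 (38.5) were intermediate. The members at background were the cofactors VGLL1 (9.76) and VGLL3 (8.21).

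In homologous recombination and mismatch repair 21 of 28 genes were bright (75%), 6 intermediate and 1 at background (3.57%). NBN, part of the complex that senses broken ends, read 1006. MSH6, a mismatch sensor, read 943, and FANCI, of the crosslink repair pathway, 895. PARP1, the target of PARP inhibitors, read 727. RAD52, a helper of strand annealing, was at background at 11.1, close to the median.

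Genes tied to drug response were bright in 20 of 29 cases (69%), with 6 intermediate and 3 at background (10.3%). The tubulins TUBB (5448), TUBB4B (3875) and TUBB3 (2999.95), among the targets of taxanes, were bright. TYMS, the target of fluorouracil, read 5151. GSTP1, which conjugates drugs to glutathione, read 2442. Among efflux pumps, ABCC1 was bright at 472, whereas ABCB1, the pump best known for resistance to taxanes, was at background at both of its probe sets, the higher at 0.551. ABCC2 (3.28) and ABCB4 (1.19) were at background as well.

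Secreted growth factors and cytokines read bright in 13 of 52 cases (25%), with 19 intermediate and 20 at background (38.5%), and a median of 21.8. MIF, a cytokine made by many cell types, read 2457. VEGFA, the growth factor of blood vessels, read 761. GDF15, a stress-induced factor, read 273 (273.5). IL6 (32.6) and CXCL8 (52.8), inflammatory factors found in ovarian ascites, were intermediate. TNF (5.81), CXCL10 (1.53) and CCL2 (0.996) were at background, as was BMP4 (0.721). The receptor chains IL6ST and IL6R were thus bright while their ligand IL6 was intermediate. IL6 and CXCL8 were in another class on both G9a shRNA arrays.

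Markers of cells that a pure culture should lack were read as well. Their lists were chosen with earlier results of these arrays known, so they are no independent check on the background class. Of 20 leukocyte markers none was bright, 3 were intermediate and 17 at background (85%). CD79A, a B cell receptor chain, read highest at 53.4, with its other probe set at 1.37, and PTPRC, the pan-leukocyte phosphatase, read 3.03. Of 14 endothelial markers 10 were at background (71.4%), among them CDH5 (0.323) and VWF (4.54). EGFL7, a secreted endothelial factor, was bright at 134 on its single probe set. Among 35 genes of unrelated tissues 26 were at background (74.3%), 7 intermediate and 2 bright (5.71%). The bright pair were KRT10, a keratin of skin, at 1457 with all 3 probe sets bright, and MBP, myelin basic protein, at 384 with 3 probe sets bright and 6 at background. All 25 measured housekeeping genes were bright, from POLR2A at 143 to TUBA1B at 10076. Without probe sets of the types _x_at and _s_at, which can bind several transcripts or genes, 14 of 19 were bright and TUBA1B, PPIA and ENO1 were at background, the former pair also without the type _x_at alone.

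Taking each gene of the 26 lists once, 744 of 829 had a value, of which 336 were bright (45.2%), 173 intermediate and 235 at background (31.6%). Over all genes those shares were 39.6% and 37.7%, and over protein-coding genes 46.5% and 30.5%. The lists were chosen with earlier results of these arrays known, so the distance between these shares is not evidence about the lists.

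The 25 highest genes were largely those that every growing cell uses. Ribosomal protein genes took 12 of these places, RPS23 leading at 11114 and RPL7 following at 10146, and they took 41 of the first 100 places out of 72 measured. Mitochondrial genes took 2 places, with COX2 at 10647 and ND4 at 9245, where COX2 stands for subunit II of cytochrome c oxidase and not for the prostaglandin synthase. Translation and protein care were further represented by EEF1A1 (9674), an elongation factor, NACA (8364), a chaperone of nascent chains, and the chaperone HSP90AA1 (8456). TPT1 (9147), a growth-related tubulin-binding protein, FTL (8204), the ferritin light chain, and LDHA (8808), which makes lactate, were also there.

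Beside S100A4, its relative S100A6, a calcium-binding protein, read 8379, although its other probe set read 44.1. HUWE1, a ubiquitin ligase, read 8512 at a probe set of the type that can bind other genes, while its other probe sets read 642, 30.8, 10.3 and 7.82. FTH1P5, a pseudogene of the ferritin heavy chain, read 8304, and its parent gene is nearly identical to it, so the source of that signal is uncertain. Of all these genes, S100A4 was the only one of the 25 that stood in a lineage list.

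Each gene took its brightest probe set, and the share of bright genes rose with the number of probe sets per gene. Among genes with 1 probe set 25.5% were bright and 54.4% at background, and among genes with 4 or more 64% were bright and 12.8% at background. For protein-coding genes alone the bright shares were 33.8% and 65.7%. Of 5463 bright genes with several probe sets, 2376 (43.5%) also had a probe set at background. When a gene took the mean log2 signal of its probe sets in place of the brightest, the bright members numbered 7 in the Müllerian list, 12 in the epithelial, 6 in the mesenchymal and 4 among receptor tyrosine kinases, and 20 of the oncogenes and 10 of the tumor suppressor genes stayed above the boundary. Under that mean ESR1 (9.41), FGFR2 (6.43), LGR4 (6.49), ACKR3 (7.69), HBEGF (10.4), LATS1 (8.93), MBP (11.2) and POLR2A (9.66) were among 18 listed genes that went from bright to background. Without probe sets of the types _x_at and _s_at, 7 of 21 epithelial genes were bright and 6 at background, and 4 of 18 mesenchymal genes were bright and 9 at background. In that setting 24 listed genes went from bright to background, among them FN1, FGFR2, IFNGR1, LGR4, AURKA, SMARCA4, RPS6, NBN, NRG1 and GDF15. MUC16, NF1 and EGFL7 were each called on a single probe set with 1 symbol, and the part of probe set number in the calls of single genes was not tested.

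By kind of gene, 7682 of 16516 protein-coding genes were bright (46.5%), with a median of 70.6. Long noncoding RNA genes were bright in 92 of 2657 cases (3.46%), with a median of 4.63, and 76.3% of them were at background. Transcribed pseudogenes were bright in 42 of 423 cases (9.93%).

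The upstream windows shown above were computed for the 15382 genes with a RefSeq promoter entry. The median number of CG in 250 bases was 22 for bright genes (quartiles 16 to 29), 19 for intermediate genes (8 to 27) and 6 for background genes (2 to 18). The motif TATAAA, searched on both strands, was found in 4.52% of bright, 6.64% of intermediate and 14.1% of background windows, and in 8.31% of all windows. CCAAT, also on both strands, was found in 36%, 32.8% and 32.6% of them. The windows of bright genes thus held more CG and less often TATAAA, and the quartiles of CG in bright and background genes overlapped. Among the windows printed, those of the bright genes VIM and PAX8 held few CG, 8 and 11. The window of MUC16, at background, held 6, the median of its class. Each window lies before the annotated start of the gene, and whether these cells start transcription there was not tested. A motif match in a window is a description of its letters and not of a bound factor.

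**Figure D5:**
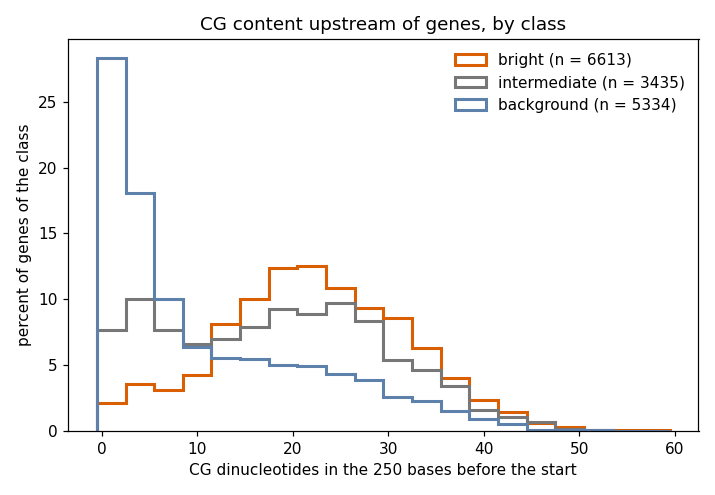
Share of genes in each class (vertical axis, percent) by the number of CG dinucleotides in the 250 bases upstream of the gene start (horizontal axis), for bright, intermediate and background genes of the Luc shRNA array. The medians were 22, 19 and 6, and the background genes pile up at low numbers.

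The other arrays of the series offered the only look at steadiness, and it mixes array error with the effect of the G9a shRNAs. Each gene was read at the same probe set, its brightest on the Luc shRNA array, a choice that can favour lower readings on the other arrays. Of the 7825 bright genes, 7436 (95%) were bright on both G9a shRNA arrays and 0 were at background on either. Of the 7449 background genes, 6643 (89.2%) stayed at background on both and 0 were bright on either. The ratio of the highest to the lowest of the 3 signals had a median of 1.25 for bright genes, 1.52 for intermediate genes and 3.47 for background genes. The intermediate class kept the smallest share, with 3047 of 4501 (67.7%) in it on all 3 arrays. It alone is bounded on both sides, so its genes can leave it in either direction, by definition. Besides those given above, named genes in another class on both G9a shRNA arrays included SNAI2, ESR2, DUSP6, SPRY4, ANKRD1 and FAS, called intermediate. NAPSA, NOTCH4, ABCC2 and FGF1, called at background, were among them too. On the Luc shRNA array the beta-actin control read 3.68 times more at the 3′ end than at the 5′ end, against 1.83 and 1.47 on the G9a shRNA arrays, while the ratio for GAPDH was 1.15, and the part of RNA integrity in these calls was not tested.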

How the data were processed

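Total RNA from 3 stably transduced SKOV-3 populations was hybridised to Affymetrix U133 Plus 2.0 arrays, 1 array per condition. The authors deposited 1 signal intensity per probe set, on a linear scale, made with MAS5 per the submitters' processing notes. The version and settings are not given in the sources used here. The deposited intensities of the Luc shRNA array were used as they stood, with no further scaling. Of 54675 probe sets, 41097 had 1 gene symbol, 1801 several and 11777 none in the platform annotation, and 41043 of the first matched a RefSeq gene. Each gene took its brightest probe set (19775 genes). Classes were set at the 50th and 75th percentiles of all values on the 3 arrays. Genes were named from the 5 markers, the 25 highest, and in each list up to 8 of the brightest members, the members at background, and members whose probe sets disagreed. Other genes were named after their values were seen. Members and lists were chosen with earlier results of these data known. Of 829 listed genes, 744 had a value here. Arrays give no read depth, so their number limits the precision. The scripts (Python 3.11.15, numpy 2.4.6, pandas 2.3.3, matplotlib 3.10.9) were tested on simulated data. Alternatives were the mean of log2 signals over probe sets, other probe set filters, quantile normalization, other boundaries and the G9a shRNA arrays.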

Additional observations from a re-analysis of the deposited data

How the results depend on the processing

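With 1 array per condition no value had an error. No paired analysis was possible because each condition has 1 array. The count of bright genes, 7825, became 4946 when a gene took the mean log2 signal of its probe sets and 3509 when bright began at the 90th percentile of all values (390.1). The count of bright listed genes, 336, became 194 with the mean, 168 with the 90th percentile and 219 without probe sets of the types _x_at and _s_at, where 606 listed genes had a value. The mean lowers genes with a dim probe set and fewer genes are counted without those types, by construction. With the mean, 72.7% of listed genes kept their class and 18 went to the opposite end, and bright receptor tyrosine kinases numbered 4 in place of 17, nuclear receptors 5 in place of 12, G protein-coupled receptors 2 in place of 7 and secreted factors 5 in place of 13. On the G9a shRNA1 array 87.2% and on the G9a shRNA2 array 88.3% of listed genes were in the class they had on the Luc shRNA array, and 0 were at the opposite end. The 5 markers kept their class under every alternative that measured them, 8 for ERBB2, EPCAM and VIM and 9 for PAX8 and MUC16. The remaining counts of bright or background genes, over all genes and over the lists taken once, moved by less than 1.5 times.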

Other observations

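Probe sets without a gene symbol in the annotation were seldom bright on the Luc shRNA array, at 698 of 11721 (5.96%), beside 29.4% of the probe sets with 1 symbol and 630 of 1801 (35%) of those with several symbols. The array's 3 tryptophan control probe sets, which match a bacterial gene, read 0.914 to 6.14, and the 3 probe sets of the BioB hybridisation spike read 321 to 504.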
